A study of Rattus norvegicus with 8 samples.

Results

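The 6 genes described here encode liver enzymes that put double bonds into long-chain fatty acids or lengthen them: the stearoyl-CoA desaturases Scd and Scd2, the elongases Elovl6 and Elovl5, and the front-end desaturases Fads2 and Fads1. Every non-control probe whose annotated accession belonged to one of these genes was taken, which gave 9 of the 41012 probes on the array and 6 of its 13458 named genes. Scd2 was covered by 3 probes, Elovl6 by 2, and each of the other genes by 1, all with a single spot per array. All 9 probes lay well above background on 8 of 8 arrays, in at least 1 dye, and none was saturated. The study compared livers of male Zucker diabetic fatty rats at 12 weeks of age, obese (fa/fa, without a working leptin receptor) or lean (fa/+, carrying 1 copy of the same allele), and its title asks how far the control of liver lipid metabolism by testosterone depends on leptin. Rats of both genotypes received testosterone undecanoate (TU), a long-acting testosterone ester, at 20 mg/kg under the skin for 4 weeks, or vehicle. The injections came every 3 days for 2 weeks and then weekly for 2 weeks. Each genotype had 4 dual-colour arrays, and on all 8 arrays TU-treated liver was labelled with Cy5 and vehicle-treated liver of the same genotype with Cy3. No rats without the fa allele are among these groups, the labels name no castration, and the labels do not say whether an RNA was taken from a single animal. Because no dyes were exchanged, a dye effect of a probe remains in its TU over vehicle ratio. The obese arrays all lay on 1 slide and the lean arrays on another, so genotype cannot be told apart from slide in any comparison of obese with lean rats.

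Stearoyl-CoA desaturases place a double bond in the middle of saturated fatty acyl-CoAs and so make palmitoleate and oleate, the main monounsaturated fatty acids of liver triglyceride. Elovl6 lengthens palmitate to stearate, which feeds that step, while Elovl5 lengthens polyunsaturated acyl-CoAs between the steps of Fads2, the delta-6 desaturase, and Fads1, the delta-5 desaturase, on the way to arachidonate and related fatty acids. In rodent liver many of these genes are known targets of the sterol-regulated factor SREBP-1c and of PPAR alpha, and Scd also of the liver X receptors and the carbohydrate-responsive factor ChREBP.

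Promoter windows of 5 of the 6 genes, all but Elovl6, with 250 bases before to 50 after the annotated start site, were taken from RefSeq sequences of build GRCr8. The windows of Scd (chr1:253231682-253231981, minus strand), Scd2 (chr1:253118127-253118426, plus strand), Elovl5 (chr8:87670914-87671213, plus strand) and Fads1 (chr1:216252442-216252741, plus strand) are shown, and they differ in the motifs searched. The RNAs of Scd, Elovl5 and Fads1 were higher in obese livers under vehicle, whereas for Scd2 only 1 of its 3 probes was. The window of Fads2, whose RNA was also higher, is not shown. Capitals mark the letters CCAAT on either strand (ATTGG where on the opposite strand) and the letters CACGTG.
Scd: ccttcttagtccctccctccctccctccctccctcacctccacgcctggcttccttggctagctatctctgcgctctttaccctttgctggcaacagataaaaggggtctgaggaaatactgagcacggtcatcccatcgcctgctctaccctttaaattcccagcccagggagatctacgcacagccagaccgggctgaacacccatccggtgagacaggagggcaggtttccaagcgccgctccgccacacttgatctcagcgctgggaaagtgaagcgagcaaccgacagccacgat
Scd2: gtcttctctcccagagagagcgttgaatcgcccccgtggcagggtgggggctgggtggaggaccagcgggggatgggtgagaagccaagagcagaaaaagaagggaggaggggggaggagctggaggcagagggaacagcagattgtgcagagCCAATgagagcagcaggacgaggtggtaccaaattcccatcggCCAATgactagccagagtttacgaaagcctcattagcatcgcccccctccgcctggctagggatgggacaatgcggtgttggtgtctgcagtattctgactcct
Elovl5: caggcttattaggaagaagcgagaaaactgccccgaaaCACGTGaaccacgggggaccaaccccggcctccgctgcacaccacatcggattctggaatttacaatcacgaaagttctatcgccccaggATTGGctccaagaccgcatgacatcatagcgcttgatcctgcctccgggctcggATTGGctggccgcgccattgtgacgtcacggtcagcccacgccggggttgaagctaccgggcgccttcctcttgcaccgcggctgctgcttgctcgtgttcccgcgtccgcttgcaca
Fads1: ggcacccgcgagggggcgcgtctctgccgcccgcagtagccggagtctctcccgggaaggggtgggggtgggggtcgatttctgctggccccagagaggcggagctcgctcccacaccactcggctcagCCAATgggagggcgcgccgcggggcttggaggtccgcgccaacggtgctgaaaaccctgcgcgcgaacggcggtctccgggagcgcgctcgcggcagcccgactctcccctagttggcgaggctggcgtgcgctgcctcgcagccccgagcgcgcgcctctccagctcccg
CCAAT, the letters of the NF-Y box, occurred in 3 of the 5 windows, against 37.49% of the 33469 windows in the table. The Scd2 window held it at -97 to -93 and at -54 to -50 from the start site, that of Elovl5 on the opposite strand at -122 to -118 and at -68 to -64, and that of Fads1 at -121 to -117. CACGTG, the letters of an E-box, occurred in the Elovl5 window alone, at -212 to -207, against 6.418% of all windows. TCACNCCAC, a form of the sterol regulatory element, and AGGTCA, a nuclear receptor half-site, occurred in 0 of the 5 windows on either strand, against 1.117% and 16.18% of all windows. The motifs do not overlap one another, and a match of letters is not a bound site. Scd and Scd2 are neighbours on rat chromosome 1 with Scd4 between them. Fads1 and Fads2 are also close on chromosome 1, with 2 uncharacterised genes between them.

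Of the probes on each array, 51.2% to 61.2% were well above background in Cy5 and 59.0% to 69.5% in Cy3, and 26867 probes passed the filter. Log ratios on obese replicate 2 had an SD of 0.46, against 0.15 to 0.25 on the other 7 arrays. The liver label was checked against 8 hepatocyte markers, of which 7 passed the filter and Tf did not. Their summed normalized signal was 603570 to 985601 in obese and 628204 to 698724 in lean vehicle livers, and 598583 to 1122910 in obese and 802044 to 926085 in lean TU livers, so the ranges of the genotypes overlapped in both treatments. Single markers did differ. At an adjusted p under 0.05 by limma, 2 of the 7 were higher in obese rats and 0 lower under vehicle, where 11.3% of all probes were higher. Under TU 2 were higher and 0 lower, where 14.2% of all probes were higher. The median log2 difference of the 7 was 0.04 in both treatments.

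Under vehicle, obese livers carried more RNA of Scd, Elovl5, Elovl6, Fads1 and Fads2 than lean livers. The 3 probes of Scd2 disagreed. Probe 1 was higher, whereas probe 2 had a log2 difference of -0.50 and probe 3, close to background, one of 0.08, neither called. In a limma fit of the Cy3 signals of 4 obese and 4 lean arrays, 7 of the 9 member probes were called higher in obese rats at an adjusted p under 0.05 and 0 lower, where 11.3% of all probes were called higher. The median log2 difference of the 9 probes was 1.90, against 0.03 for all probes. Under TU, in the Cy5 signals, 6 of the 9 were called higher and 0 lower, where 14.2% of all probes were called higher, and the members' median was 1.23, against 0.04 for all probes. The probes called were those whose 4 obese arrays all lay above the 4 lean arrays, a separation that 17% of all probes showed under vehicle and 17.5% under TU. The exceptions in both treatments were Scd2 probes 2 and 3, and under TU also Scd2 probe 1. In whole liver, fewer cells of a type and less RNA per cell cannot be told apart.

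Markers of other cells also differed between the genotypes, and their part in these results was not tested. Beside the counts below, 11.3% of all probes were called higher and 7.55% lower in obese rats under vehicle. Under TU these shares were 14.2% and 8.87%. All 4 obese arrays lay above all 4 lean arrays for 17% of single probes under vehicle and 17.5% under TU. They lay below for 11.7% and 11%. Of 7 stellate cell markers, 6 passed the filter, and Acta2 was not on the array by name. Their summed signal was 7617 to 11118 in obese and 6042 to 7202 in lean vehicle livers, and 7382 to 15887 in obese and 5169 to 5457 in lean TU livers. Obese livers thus lay above lean ones in both treatments, although the markers did not all go one way: 2 of the 6 were called higher and 1 lower under vehicle, and 4 higher and 1 lower under TU, the lower one being Lrat in both. The adipocyte markers Adipoq and Lep did not pass the filter, and the other 4 measured adipocyte markers summed to 2178 to 2684 in obese and 3486 to 4207 in lean vehicle livers. Under TU they summed to 2119 to 2316 in obese and 3771 to 4032 in lean livers, so the sum was lower in obese livers in both treatments. In each treatment 3 of these 4 markers nevertheless had log2 differences above 0, with medians over the 4 of 0.17 under vehicle and 0.16 under TU. Cfd was called lower, at -0.76 ± 0.10 under vehicle (adjusted p = 0.0028) and -0.92 ± 0.06 under TU (adjusted p = 0.00014), and Fabp4 higher, at 0.56 ± 0.13 (adjusted p = 0.023) and 0.68 ± 0.16 (adjusted p = 0.017). Both were named after their values were seen. The 3 erythroid markers on the array summed to 5244 to 30895 in obese and 2391 to 6437 in lean vehicle livers, which overlap. The Kupffer cell, sinusoidal endothelium, cholangiocyte and pancreas sums of the genotypes overlapped under vehicle, whereas the 4 lymphocyte markers that passed summed to 359 to 454 in obese and 576 to 669 in lean vehicle livers. Under TU the lymphocyte sum was 380 to 486 in obese and 581 to 706 in lean livers, and the Kupffer cell sum was 12624 to 17771 in obese and 18526 to 19726 in lean livers, so both sums were lower in obese livers. The Kupffer cell markers did not all go that way. Of the 7, 3 had log2 differences below 0 and 4 above 0 under TU, with a median of 0.10, and 1 was called lower. Of the 4 lymphocyte markers, 3 lay below 0 and 1 above 0 under TU, and 1 was called lower. The endothelium, cholangiocyte, erythroid and pancreas sums overlapped under TU, where Pecam1 and Lyve1, 2 of the 4 endothelial markers, were called lower in obese rats.

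TU lowered no member in obese livers at the adjusted threshold. In the limma fit of the log2 ratios, 0 of the 9 member probes were called, where 0.0409% of all probes were called. At an unadjusted p under 0.05, 7 of the 9 were lower, where 9.19% of all probes were lower at that level. All 9 means lay below 0, with a median of -0.75, against -0.01 for all probes, and 5 of the 9 were below 0 on all 4 obese arrays, as were 13% of all probes. These p-values rest on 1 spread per probe that both genotypes share. The obese log ratios of Scd had an SD of 0.98 and the lean ones 0.19, yet both means have an SE of 0.29. In a limma fit of the obese arrays alone, 0 of all 26867 probes were called. There 2839 probes had an unadjusted p under 0.05, against 4675 in the shared fit. The lean arrays went the other way. A limma fit of them alone called 1135 probes, against 268 in the shared fit. In it 6218 probes had an unadjusted p under 0.05, against 4433. In the shared fit 1 of the 9 was called in lean livers, where 0.998% of all probes were called: Scd2 probe 2 fell. At an unadjusted p under 0.05, 3 of the 9 were lower in lean livers, where 8.92% of all probes were. The lean median was -0.23, against -0.02 for all probes, and 4 of the 9 probes were below 0 on all 4 lean arrays, as were 17.4% of all probes.

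Some cell markers also differed between TU and vehicle, and their part in the members' values was not tested. Over all probes, 17.4% had an unadjusted limma p under 0.05 in obese rats, 16.5% in lean rats and 9.45% for the response difference. Those called were 0.0409%, 0.998% and 0%. Mean log2 ratios lay below 0 for 53.9% of all probes in obese and 56.1% in lean rats. The 7 Kupffer cell markers all had mean log2 ratios below 0 in both genotypes, with medians of -0.24 in obese and -0.16 in lean rats, and 0 of them were called by limma (2 at an unadjusted p under 0.05 in each genotype). Their sum was 12624 to 17771 under TU and 17630 to 24022 under vehicle in obese livers, and 18526 to 19726 under TU and 18198 to 26308 under vehicle in lean livers. Of the 7 hepatocyte markers, Ambp was called higher with TU, at 0.68 ± 0.07 in obese rats (adjusted p = 0.044) and 0.66 ± 0.07 in lean rats (adjusted p = 0.012), and was named after its values were seen. The hepatocyte sum of lean livers was 802044 to 926085 under TU and 628204 to 698724 under vehicle, which do not overlap, and that of obese livers did overlap. In every sum of this paragraph TU was in Cy5 and vehicle in Cy3, so treatment cannot be told apart from dye. The stellate cell sum of lean livers was 5169 to 5457 under TU and 6042 to 7202 under vehicle, and in obese livers the ranges overlapped. The 3 erythroid markers had mean log2 ratios above 0 in lean rats (median 0.83) and below 0 in obese rats (median -0.26). By limma 0 of them were called in either genotype, with 1 at an unadjusted p under 0.05 in lean and 0 in obese rats. For their obese minus lean response difference the median was -1.30, with 0 called and 2 under 0.05 unadjusted.

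The difference between the genotypes in the TU response was tested directly, and 0 of the 9 member probes were called, as was the case for 0% of all probes. At an unadjusted p under 0.05, 3 of the 9 had a lower log ratio in obese rats, where 3.81% of all probes did, and 1 had a higher one, where 5.64% did. Both genotype comparisons and both TU responses come from the same 8 arrays, so the log2 difference between obese and lean rats under TU equals that under vehicle plus the difference in response. They are not separate lines of evidence.

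**Figure D1:**
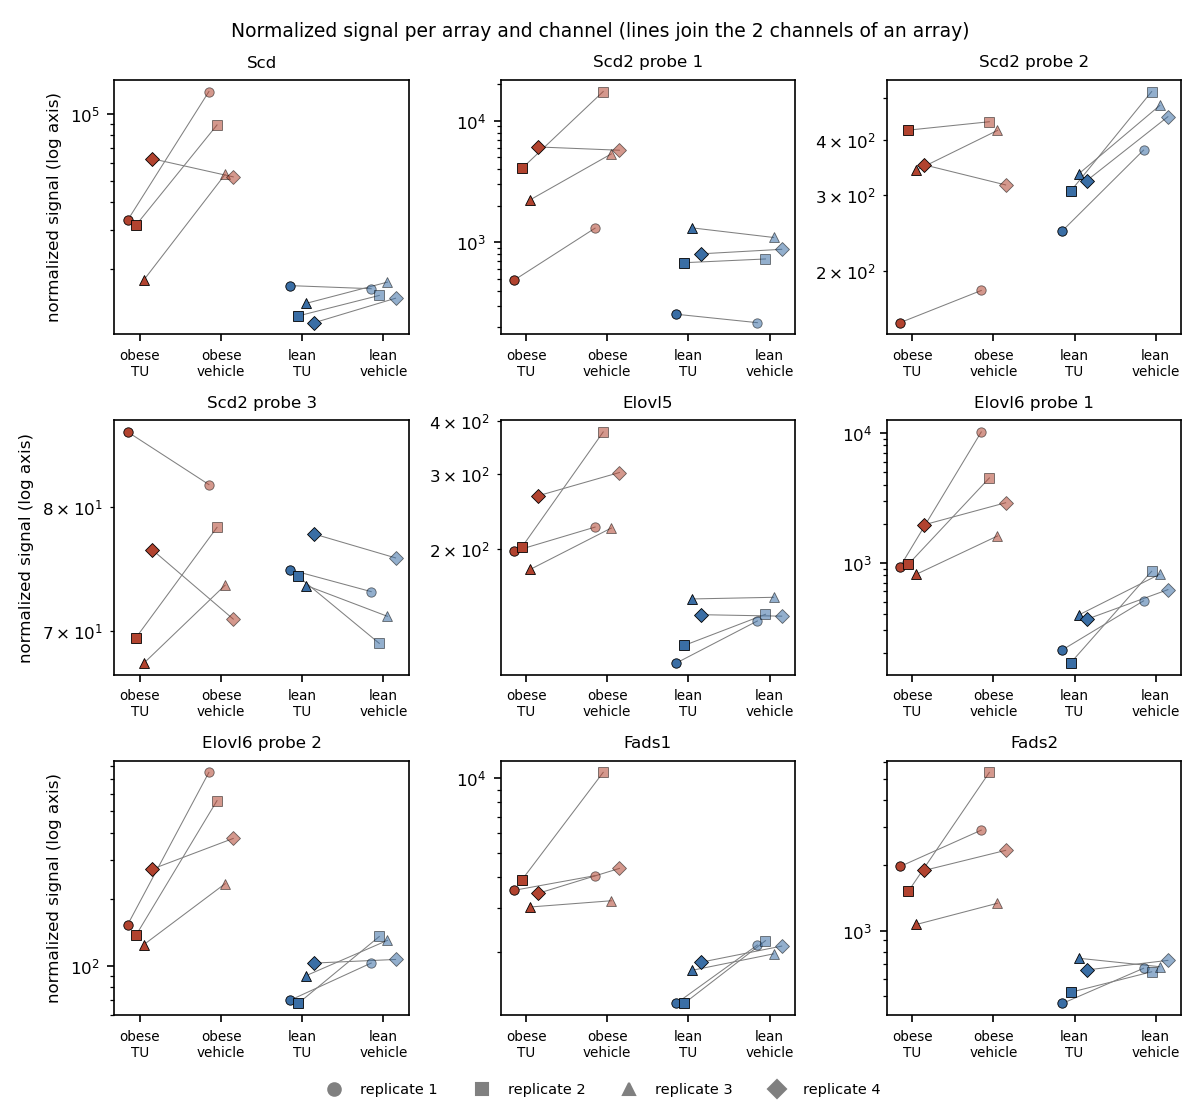
Normalized signal of each of the 9 probes on a log axis (loess and Aquantile, arbitrary units), in obese rats (red) and lean rats (blue); dark points are TU (Cy5), light points vehicle (Cy3), and a line joins the channels of 1 array. In 7 panels every obese vehicle point lies above every lean vehicle point; Scd2 probes 2 and 3 are the exceptions.

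Scd, the main hepatic delta-9 desaturase, was higher in obese livers in both treatments. Its normalized signal under TU was 33301, 31536, 17969 and 62730 on obese replicates 1 to 4, against 16911, 12362, 14085 and 11534 on lean replicates 1 to 4. Under vehicle it was 125528, 88893, 53357 and 52003 on the obese arrays, against 16382, 15279, 17531 and 14843 on the lean arrays. The lowest obese signal exceeded the highest lean signal in both treatments, narrowly so under TU. The log2 difference of obese over lean rats was 2.22 ± 0.28 (SE, adjusted p = 0.0024), or 4.67-fold, under vehicle and 1.28 ± 0.34 (adjusted p = 0.028), or 2.43-fold, under TU. With 75th percentile scaling in place of loess the vehicle difference was 1.58 (adjusted p = 0.0052). Scd was so bright that both channels of the 4 obese arrays, and Cy3 on 2 lean arrays, were read from the low-gain scan and scaled up by the scanner software. Without lean replicate 2, 3 or 4 or obese replicate 2, its TU difference was no longer called, with adjusted p from 0.057 to 0.079.

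The Scd ratio of TU to vehicle differed among the obese arrays. Its log2 ratio was -1.91, -1.50, -1.57 and 0.27 on obese replicates 1 to 4, against 0.05, -0.31, -0.32 and -0.36 on lean replicates 1 to 4. Of the obese arrays, 3 were therefore far below every lean array and the fourth was above all of them. The mean was -1.18 ± 0.29 in obese rats (adjusted p = 0.13) and -0.23 ± 0.29 in lean rats (adjusted p = 0.76), and their difference was -0.94 ± 0.41 (adjusted p = 0.52), with a 95% interval from -1.87 to -0.02. Without obese replicate 4 the obese mean was -1.66 and was called (adjusted p = 0.0057).

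The 3 Scd2 probes did not give the same pattern. Scd2 encodes a second delta-9 desaturase, known in mice from brain and developing tissues. Probe 1 had signals of 486, 4063, 2236 and 6096 under TU on obese replicates 1 to 4, against 255, 679, 1313 and 803 on lean replicates 1 to 4. Under vehicle they were 1307, 17443, 5345 and 5731 on the obese arrays, against 218, 728, 1095 and 875 on the lean arrays. Replicate 1 was the lowest of its genotype in both treatments, although the numbers do not pair obese with lean rats. The obese over lean difference of probe 1 was 3.04 ± 0.81 (adjusted p = 0.038), or 8.24-fold, under vehicle and 1.80 ± 0.81 (adjusted p = 0.15) under TU, where obese replicate 1 lay among the lean arrays. The vehicle call was lost without any 1 of lean replicates 1 to 4 or obese replicates 2 to 4 (adjusted p from 0.052 to 0.093). Without obese replicate 1 the vehicle difference was 3.70 (adjusted p = 0.0093) and the TU difference was 2.54 and was called (adjusted p = 0.010).

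Probe 1 had log2 ratios of TU to vehicle of -1.43, -2.10, -1.26 and 0.09 on obese replicates 1 to 4, against 0.23, -0.10, 0.26 and -0.12 on lean replicates 1 to 4. As with Scd, 3 obese arrays lay below all lean arrays and obese replicate 4 did not. The means were -1.17 ± 0.27 in obese rats (adjusted p = 0.12) and 0.07 ± 0.27 in lean rats (adjusted p = 0.94), and the lean mean was -0.19 with median centring in place of loess. Their difference of -1.24 ± 0.39 was not called (adjusted p = 0.45). Without obese replicate 4 the obese mean was -1.60 (adjusted p = 0.028).

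Scd2 probe 2 gave the single call among the members for TU, in lean rats. Its log2 ratio was -0.25, -0.06, -0.30 and 0.15 on obese replicates 1 to 4, against -0.62, -0.76, -0.52 and -0.49 on lean replicates 1 to 4. All 4 lean arrays lay below all 4 obese arrays, as was the case for 3.24% of all probes. The lean mean was -0.60 ± 0.08 (adjusted p = 0.024), a fall of 1.51-fold, and the obese mean was -0.12 ± 0.08 (adjusted p = 0.47). Their difference of 0.48 ± 0.11 was not called (adjusted p = 0.43). The lean call was lost without lean replicate 1 (adjusted p = 0.12), 2 (adjusted p = 0.13) or 3 (adjusted p = 0.10). Between the genotypes probe 2 had log2 differences of -0.50 ± 0.28 under vehicle (adjusted p = 0.24) and -0.02 ± 0.30 under TU (adjusted p = 0.97).

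Probe 3 of Scd2 lay close to background, with median spot signals of 56.5 to 68.5 on obese and 57 to 62.5 on lean arrays in Cy5, over backgrounds of 43 to 46 and 43.5 to 46. Its log2 differences were between -0.03 and 0.08 in the 4 comparisons of TU with vehicle and of obese with lean rats, with adjusted p from 0.47 to 0.97. All 3 probes carry the same accession in both versions of the array annotation. Which part of the transcript each probe reads was not analysed here.

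**Figure D2:**
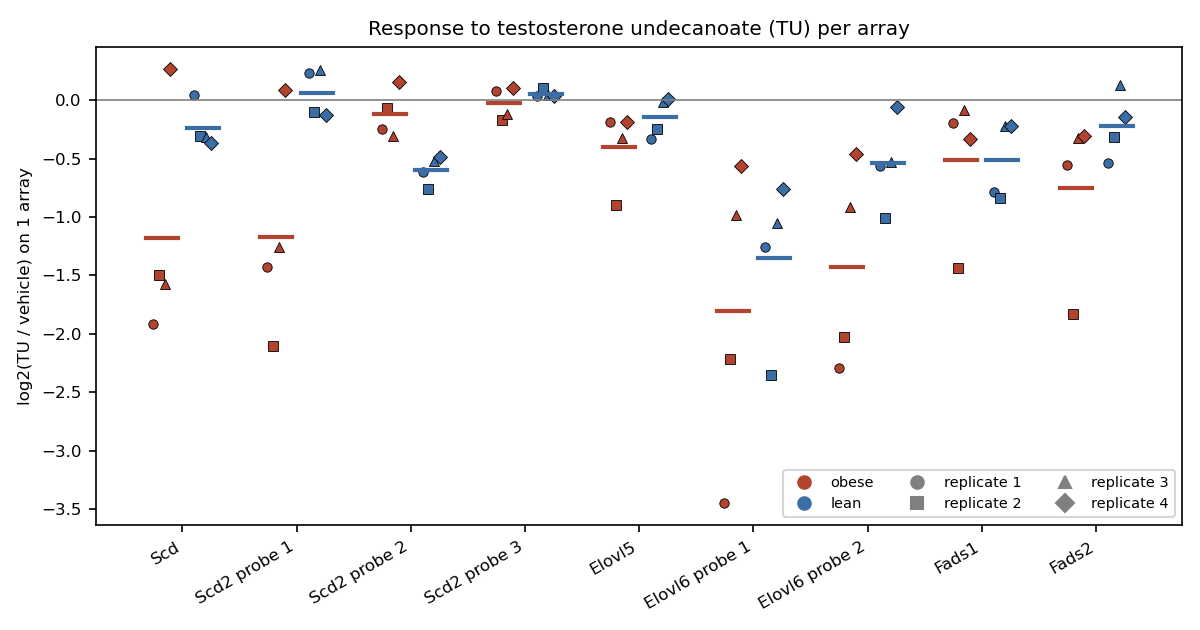
Log2 ratio of TU to vehicle on each array for the 9 probes, obese (red) left of lean (blue), with a bar at the mean of 4 arrays and a marker shape per replicate number. Obese replicate 4 (diamond) lies at 0.27 for Scd and 0.09 for Scd2 probe 1, above the other 3 obese arrays, and both Elovl6 probes lie below 0 on all 8 arrays.

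Elovl6, which lengthens palmitate to stearate, had the most negative mean TU ratios of the 6 genes in obese rats, though on obese replicate 3 Scd and Scd2 probe 1 lay lower, and both its probes were below 0 on all 8 arrays. Probe 1 had signals of 933, 968, 813 and 1960 under TU on obese replicates 1 to 4, against 213, 168, 394 and 366 on lean replicates 1 to 4. Under vehicle its signals were 10171, 4497, 1604 and 2893 on the obese arrays, against 507, 858, 814 and 619 on the lean arrays. Obese and lean arrays did not overlap in either treatment. The obese over lean difference was 2.48 ± 0.52 (adjusted p = 0.016), or 5.58-fold, under vehicle and 2.03 ± 0.36 (adjusted p = 0.0058), or 4.09-fold, under TU. The vehicle call was lost without lean replicate 1 (adjusted p = 0.053) or lean replicate 4 (adjusted p = 0.052).

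The log2 ratio of Elovl6 probe 1 was -3.45, -2.22, -0.98 and -0.56 on obese replicates 1 to 4, against -1.25, -2.35, -1.05 and -0.76 on lean replicates 1 to 4. The ranges of the genotypes overlapped. The means were -1.80 ± 0.42 in obese rats (adjusted p = 0.12) and -1.35 ± 0.42 in lean rats (adjusted p = 0.16), with a difference of -0.45 ± 0.60 whose 95% interval ran from -1.80 to 0.91. In a fit of the lean arrays alone the lean mean was called (adjusted p = 0.025), as it was with median centring, at -1.62 (adjusted p = 0.044). Without obese replicate 1 the difference between the genotypes was 0.10.

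Elovl6 probe 2 was dimmer and gave the same directions. Its log2 ratio was -2.29, -2.03, -0.92 and -0.46 on obese replicates 1 to 4, against -0.56, -1.01, -0.53 and -0.05 on lean replicates 1 to 4. The order of the obese arrays was that of probe 1. The means were -1.42 ± 0.28 in obese rats (adjusted p = 0.092, the lowest among the members there) and -0.54 ± 0.28 in lean rats (adjusted p = 0.38). Obese over lean, it differed by 1.90 ± 0.33 under vehicle (adjusted p = 0.0088) and 1.01 ± 0.26 under TU (adjusted p = 0.025). With the scanner's processed signals and quantile normalization these were 2.56 (adjusted p = 0.0082) and 2.25 (adjusted p = 0.0095), and from the processed signals the lean TU ratio was -1.54 (adjusted p = 0.10). The TU call was lost without lean replicate 1, 2 or 3 (adjusted p from 0.051 to 0.071). In Cy5 this probe was well above background on 3 of the 4 lean arrays.

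Elovl5, the elongase of polyunsaturated fatty acids, had the smallest of the called genotype differences in both treatments, with the processing used here. Its spots were dim, reading 74 to 136 in Cy5 on lean arrays over backgrounds of 41 to 44. With other processing settings its difference ranged from 0.77 to 1.18 under vehicle and from 0.59 to 1.03 under TU. Its signals were 197, 202, 179 and 267 under TU on obese replicates 1 to 4, against 108, 118, 152 and 140 on lean replicates 1 to 4. Under vehicle they were 225, 377, 224 and 303 on the obese arrays, against 135, 140, 154 and 139 on the lean arrays. The genotypes did not overlap in either treatment, and the difference was 0.96 ± 0.17 (adjusted p = 0.0091), or 1.94-fold, under vehicle and 0.70 ± 0.15 (adjusted p = 0.014), or 1.63-fold, under TU. The log2 ratio of TU to vehicle was -0.19, -0.90, -0.32 and -0.18 on the obese arrays, against -0.33, -0.24, -0.01 and 0.01 on the lean arrays. Obese replicate 2 lay lowest, and the other 3 obese arrays lay within the range of the lean arrays. The means were -0.40 ± 0.12 in obese rats (adjusted p = 0.17) and -0.14 ± 0.12 in lean rats (adjusted p = 0.60).

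Fads2, the delta-6 desaturase that opens the polyunsaturated pathway, had signals of 1976, 1515, 1067 and 1896 under TU on obese replicates 1 to 4, against 461, 519, 745 and 658 on lean replicates 1 to 4. Under vehicle its signals were 2907, 5372, 1337 and 2345 on the obese arrays, against 670, 645, 681 and 729 on the lean arrays. Every obese array lay above every lean array in both treatments. The obese over lean difference was 1.96 ± 0.37 (adjusted p = 0.011), or 3.89-fold, under vehicle and 1.42 ± 0.23 (adjusted p = 0.0039), or 2.68-fold, under TU. Both calls held without any 1 array, with adjusted p of at most 0.039 under vehicle and 0.015 under TU.

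The Fads2 log2 ratio of TU to vehicle was -0.56, -1.83, -0.33 and -0.31 on obese replicates 1 to 4, against -0.54, -0.32, 0.13 and -0.15 on lean replicates 1 to 4. Apart from obese replicate 2 the obese values were close to the lean ones. The means were -0.75 ± 0.23 in obese rats (adjusted p = 0.18) and -0.22 ± 0.23 in lean rats (adjusted p = 0.70). Without obese replicate 2 the obese mean was -0.40.

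Fads1, the delta-5 desaturase that follows, had signals of 3536, 3903, 3030 and 3440 under TU on obese replicates 1 to 4, against 1238, 1240, 1685 and 1814 on lean replicates 1 to 4. Under vehicle they were 4053, 10567, 3210 and 4334 on the obese arrays, against 2129, 2217, 1961 and 2108 on the lean arrays. The obese arrays lay above the lean arrays in both treatments, with obese replicate 2 far above the others under vehicle. The obese over lean difference was 1.23 ± 0.34 (adjusted p = 0.040) under vehicle and 1.23 ± 0.15 (adjusted p = 0.0013) under TU, or 2.35-fold in both. The vehicle call was lost without any 1 of the lean arrays or obese replicate 4 (adjusted p from 0.065 to 0.10), whereas the TU call held without any 1 array.

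The Fads1 log2 ratio of TU to vehicle was -0.20, -1.44, -0.08 and -0.33 on obese replicates 1 to 4, against -0.78, -0.84, -0.22 and -0.22 on lean replicates 1 to 4. All 8 arrays were below 0, and the genotypes overlapped. The means were -0.51 ± 0.21 in obese rats (adjusted p = 0.26) and -0.51 ± 0.21 in lean rats (adjusted p = 0.26). Their difference was 0.002 ± 0.29, with a 95% interval from -0.66 to 0.67. Without obese replicate 2 the obese mean was -0.20, and the lean mean was called (adjusted p = 0.030).

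**Figure D3:**
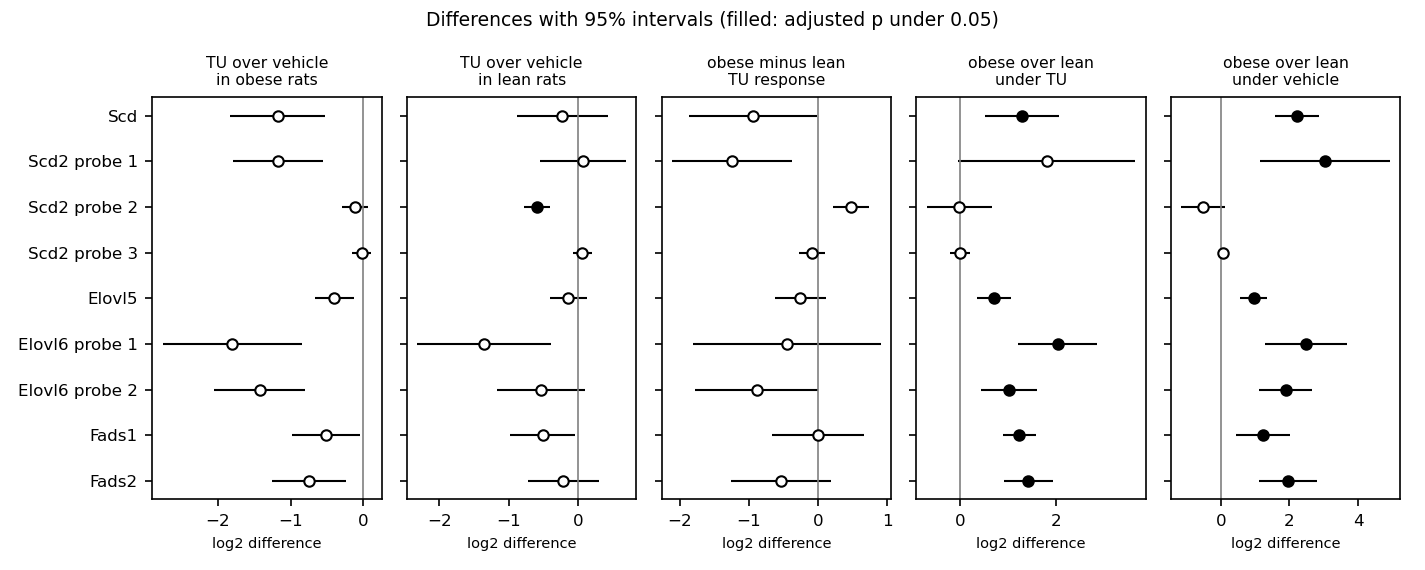
Log2 differences of the 9 probes with 95% intervals in the 5 comparisons, filled where the adjusted p was under 0.05; each panel has its own x axis. Filled points number 7 in the panel of obese over lean under vehicle, 6 under TU, 1 in lean rats given TU (Scd2 probe 2) and 0 in the other panels.

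For the probes of Scd, Elovl5, Elovl6, Fads1 and Fads2 the 4 groups stood in a single order of mean log2 signal: obese vehicle highest, obese TU next, then lean vehicle and lean TU. TU and vehicle livers of a genotype, which also differ in dye, were not distinguished for these probes at the adjusted threshold. Obese TU and lean vehicle livers differ in treatment, dye and genotype and were not tested. Their ranges can be set side by side: Scd had 17969 to 62730 in obese TU and 14843 to 17531 in lean vehicle livers, and Fads1 had 3030 to 3903 in obese TU and 1961 to 2217 in lean vehicle livers. For Elovl6 probe 1 the corresponding ranges, 813 to 1960 and 507 to 858, overlapped.

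Vehicle signals also varied more among the obese than among the lean arrays. Whether this is a spread of animals, slide or arrays was not tested. Across the 4 obese arrays the highest vehicle signal was 13.3 times the lowest for Scd2 probe 1, 6.34 times for Elovl6 probe 1, 4.02 times for Fads2, 3.29 times for Fads1 and 2.41 times for Scd. Across the 4 lean arrays it was 5.03 times for Scd2 probe 1, 1.69 times for Elovl6 probe 1, and 1.13 times for Fads2, 1.13 times for Fads1 and 1.18 times for Scd. The SD of log2 vehicle signals over all probes had a median of 0.22 on obese and 0.08 on lean arrays, so obese arrays spread more for probes in general. Fads1 then had an SD of 0.75 in obese and 0.07 in lean vehicle livers, larger than that of 94.0% of probes among obese and 43.2% among lean arrays. Under TU the Fads1 SD was 0.15 in obese and 0.29 in lean livers.

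Of 82 genes in 6 lists around the supply, partners, regulation and products of these enzymes, 69 were tested, each by its brightest probe. Under vehicle 24 of them were called higher and 1 lower in obese rats, where 11.3% of all probes were called higher and 7.55% lower. Under TU 21 were called higher and 3 lower, where 14.2% and 8.87% of all probes were. In the TU responses 0 of the 69 were called by limma in obese rats, with 28 at an unadjusted p under 0.05, where 17.4% of all probes were. In lean rats 0 were called, with 20 at an unadjusted p under 0.05, where 16.5% of all probes were. For the difference between the responses 0 were called and 7 were under 0.05 unadjusted, where 9.45% of all probes were.

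Among the partners in desaturation and elongation, 4 of 12 were higher in obese rats under vehicle and 4 of 12 under TU, with medians of 0.44 and 0.50. Elovl2, the elongase of longer polyunsaturated fatty acids, differed by 1.35 ± 0.14 under vehicle (adjusted p = 0.0010) and 1.19 ± 0.16 under TU (adjusted p = 0.0021). Hsd17b12 and Tecr, which reduce the intermediates of every elongation cycle, differed by 1.34 ± 0.29 and 1.34 ± 0.29 under vehicle and by 1.03 ± 0.30 and 0.69 ± 0.15 under TU, all called. In the response to TU, Tecr had a log2 ratio of -0.66 ± 0.21 in obese rats (adjusted p = 0.19), the lowest p of this list there.

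Fatty acid synthesis had the largest share of calls, with 9 of 12 genes higher in obese rats under vehicle and 7 of 12 under TU, and 0 lower. Its median was 1.36 under vehicle and 0.92 under TU. Fasn, fatty acid synthase, differed by 2.82 ± 0.32 under vehicle (adjusted p = 0.0015) and 3.08 ± 0.34 under TU (adjusted p = 0.00090). In the TU response all 12 genes of this list had a mean below 0 in obese rats, where 53.9% of all probes did, with a median of -0.68 and 8 at an unadjusted p under 0.05. In lean rats 11 of 12 lay below 0, where 56.1% of all probes did, with a median of -0.45 and 5 at an unadjusted p under 0.05. Me1, the malic enzyme, had the lowest p of the list in obese rats, at -1.57 ± 0.30 (adjusted p = 0.089).

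Of 19 listed regulators of lipogenesis, Srebf1, the gene of SREBP-1c, had no named probe that passed the filter and was not tested. Among the other 18 regulators, 3 were higher in obese rats under vehicle and 2 under TU, shares close to the 11.3% and 14.2% of all probes. Those under vehicle were Nr1h2, the liver X receptor beta, by 1.02 ± 0.22 (adjusted p = 0.017), Rxra, its partner receptor, by 0.84 ± 0.21 (adjusted p = 0.030), and Nfyc, a subunit of the CCAAT-binding factor NF-Y, by 0.51 ± 0.12 (adjusted p = 0.022). Under TU they were Rxra and Nr1h2, and Pparg was lower, at -0.41 ± 0.07 (adjusted p = 0.0056). In obese rats given TU, Mlx and Mlxipl, which encode the dimer partner of ChREBP and ChREBP itself, had log2 ratios of -0.42 ± 0.11 (adjusted p = 0.13) and -0.55 ± 0.16 (adjusted p = 0.17). In the list named for the use of unsaturated fatty acids in lipids, 9 genes were tested, acyltransferases and lipid droplet proteins among them. Under vehicle 4 were higher, including the acyltransferases Dgat2 (1.57 ± 0.31, adjusted p = 0.013), Gpam (1.68 ± 0.46, adjusted p = 0.041) and Lpcat3 (1.03 ± 0.26, adjusted p = 0.030). These 3 were also called higher under TU, at 1.48, 1.09 and 0.79. Named after their values were seen, Agpat2, another acyltransferase, was the fourth gene higher in both treatments (1.02 ± 0.24, adjusted p = 0.026, and 0.68 ± 0.10, adjusted p = 0.0029), and Cidea, a lipid droplet protein, was lower under TU (-0.46 ± 0.12, adjusted p = 0.031).

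**Figure D4:**
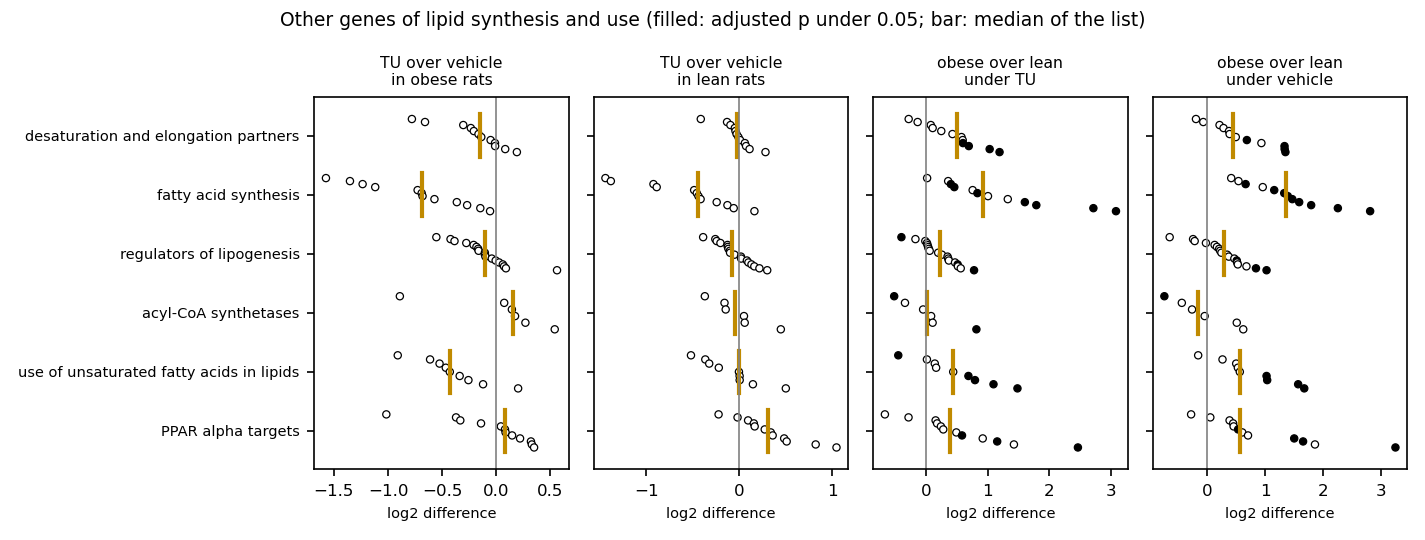
Log2 differences of the tested genes of 6 lists, 1 point per gene, filled where the adjusted p was under 0.05, with a bar at the median of each list; each panel has its own x axis. In the panels of TU over vehicle no point is filled, and fatty acid synthesis has its medians at -0.68 in obese and -0.45 in lean rats.

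Averaged over the brightest probe of each of the 6 genes, the members had mean log2 ratios of -1.29, -1.66, -0.76 and -0.17 on obese replicates 1 to 4, against -0.44, -0.69, -0.20 and -0.27 on lean replicates 1 to 4. Of 9810 other genes with a ratio on 8 of 8 arrays, those whose ratios correlated best with this mean were Pdlim1 (Pearson r = 0.985), Sfrp5 (r = 0.979), Ly6e (r = 0.968), Dlat (r = 0.967) and Tmod4 (r = 0.965). They are the upper end of many comparisons over 8 arrays and are given as a description. Dlat, a subunit of pyruvate dehydrogenase, had ratios of -1.33 to 0.04 on obese and -0.33 to 0.15 on lean arrays, while those of Sfrp5 lay between -0.07 and 0.12 on obese and between 0.03 and 0.11 on lean arrays.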

How the data were processed

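The members, gene lists and motifs were chosen with earlier results of these data known. Per the file headers, the deposited spot and background intensities are median pixel values, which Agilent Feature Extraction 10.7.3.1 wrote. The deposited processed intensities were background-subtracted, detrended and dye-normalized, and the log10 ratios are red over green processed signal, per the file headers. The authors' deposited matrix holds log2 ratios of unstated normalization; their slope of 3.33 to 3.38 on the scanner's log10 ratio gave their base and their direction, TU over vehicle. They correlated with the ratio of the processed signals with r of 0.998 to 1.000, and their column medians were 0.0462 to 0.140. With the loess-normalized log ratios analysed here they correlated less, with r of 0.559 to 0.822. Columns without a sample numbered 0.

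Median signals were corrected with normexp (offset 50) and loess in limma 3.58.1 under R 4.3.3, and the files were read with data.table (version 1.17.8); mean signals, assumed in the plan, were not in these files. On lean replicate 3 and obese replicates 3 and 4, a few spots with extreme local background (up to 65529) distorted the normexp fit. Spots with a background over 3 times the array median were therefore left out, 84 over all arrays; the fit with all spots is an alternative chosen after seeing the data. Control and non-uniform spots were left out too. A probe was tested where at least 4 of 8 arrays had it well above background in 1 channel or both, which left 26867. TU responses were fitted on the log2 ratios of 8 arrays (lmFit, eBayes) with a mean per genotype and 1 spread shared by both genotypes. Genotypes were compared per channel after Aquantile normalization. All fits used Benjamini-Hochberg adjustment at 0.05. Errors are SE of these fits, and the arrays' number limits their precision. The fits were tested on simulated data. In each comparison and list the named genes are up to 3 called genes of largest difference, or else the 2 of lowest p, and some of these are not reported here; the 5 genes of like pattern follow the highest r. Replicate numbers did not pair obese with lean arrays, since the correlations of same-numbered deviations were -0.118 to 0.083. Alternatives were other background corrections, normalizations, filters and fits, and each array left out. Promoters come from RefSeq (GRCr8).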

Additional observations from a re-analysis of the deposited data

Results flagged for a closer look

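Of 54 sets of 4 arrays tested among the members, 2 held an array far from the other 3, where chance gives about 1 in 20. For Scd, lean replicate 1 had a log2 ratio of TU to vehicle of 0.0459, against -0.364 to -0.306 on the other lean arrays. For Fads2, obese replicate 2 had a log2 ratio of -1.83, against -0.557 to -0.306 on the other obese arrays. That array also had the widest spread of log ratios over all probes of the 8 arrays, with an SD of 0.464, and its part in the Fads2 value was not tested.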

How the results depend on the processing

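Of 840 values of single member probes under the alternatives, 772 kept their direction and their side of the threshold, 33 lost a call, 12 gained one and 23 changed sign. For TU in lean rats 1 member probe was called, against 4 with median centring in place of loess, 2 in a fit of the lean arrays alone, and 0 with the brightest probe per gene, with trend and robust settings, and with the replicate number as a block (replicate block), where Scd2 probe 2 had an adjusted p of 0.063. With 1 array left out the count was 0 to 2 in lean rats, 0 to 2 in obese rats, where 2 were also called with log ratios scaled between arrays, 4 to 7 for obese over lean rats under vehicle and 4 to 7 under TU. The block also ended the vehicle calls of Fads1 (adjusted p = 0.054) and Elovl6 probe 1 (adjusted p = 0.052) and gave Scd2 probe 1 a call under TU (adjusted p = 0.033). With all spots in the background model the vehicle call of Fads1 (adjusted p = 0.051) and the TU call of Elovl6 probe 2 (adjusted p = 0.052) were lost. Without the filter the vehicle calls of Scd2 probe 1 (adjusted p = 0.054) and Fads1 (adjusted p = 0.056) were lost. With 75th percentile scaling, which moved the all-probe median under TU to -0.09, against 0.04, the Scd difference under TU was 0.97 (adjusted p = 0.068). With the scanner's processed signals Scd2 probe 2 was called lower in obese rats under vehicle, at -0.75 (adjusted p = 0.020).

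Signs changed among values that were not called. With median centring, which moved the all-probe median to -0.11 in lean rats, against -0.02, and that of the response difference to 0.14, Scd2 probe 1 in lean rats was -0.19, and the response differences of Elovl5 and Elovl6 probe 1 were 0.00048 and 0.035. Without background correction Scd2 probe 3 in obese rats was 0.049 and the Fads1 response difference -0.0037. Obese over lean under TU, Scd2 probe 2 was 0.050 with 75th percentile scaling and 0.028 with all spots in the background model, and Scd2 probe 3 was 0.0059 with quantile normalization and 0.0031 with all spots. With 1 array left out, Scd2 probe 3 in obese rats ranged from -0.070 to 0.023, the response differences of Fads1 from -0.14 to 0.31 and of Elovl6 probe 1 from -0.86 to 0.10, and, obese over lean under TU, Scd2 probe 2 from -0.19 to 0.30 and Scd2 probe 3 from -0.078 to 0.041. The cause of these changes was not tested.

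Over all probes, TU called 268 in lean rats, against 0 to 3454 under the other settings and 3 to 1726 with 1 array left out, and 11 in obese rats, against 0 to 496 and 0 to 22. The response difference called 0, against 0 to 2 in both. Obese over lean, 5070 were called under vehicle, against 3077 to 6669 and 2576 to 7176, and 6195 under TU, against 3701 to 8741 and 4150 to 9269. The lean calls were 167 higher and 101 lower, against 186 and 3268 with median centring and 142 and 133 with processed signals. The obese calls were 10 higher and 1 lower, against 300 and 196 with scaling between arrays and 152 and 57 with processed signals. The block gave 31 in lean and 0 in obese rats. Signal over background limits Scd2 probe 3, whose Cy5 spots read 56.5 to 68.5 on obese and 57 to 62.5 on lean arrays.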

Other observations

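Of 12 PPAR alpha targets, 4 were higher in obese rats under vehicle, where 11.3% of all probes were called higher, and 3 under TU, where 14.2% were, with medians of 0.57 and 0.38. Fgf21, a hepatokine of fasting, differed by 3.26 ± 0.51 under vehicle (adjusted p = 0.0059) and 2.46 ± 0.37 under TU (adjusted p = 0.0031). In the TU response 0 of the 12 were called by limma in either genotype, with 3 at an unadjusted p under 0.05 in obese rats, where 17.4% of all probes were, and 6 in lean rats, where 16.5% were, and medians of 0.09 in obese and 0.31 in lean rats. Cyp4a1, a fatty acid omega-hydroxylase, had the lowest p of this list in lean rats, at 0.48 ± 0.10 (adjusted p = 0.061).

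Among 6 acyl-CoA synthetases, which activate the substrates of desaturases and elongases, Acsl3 was lower in obese rats in both treatments, at -0.75 ± 0.14 under vehicle (adjusted p = 0.010) and -0.52 ± 0.16 under TU (adjusted p = 0.043). Slc27a2 was called higher under TU, at 0.81 ± 0.20 (adjusted p = 0.024). In obese rats given TU, Acsl5 had a log2 ratio of -0.89 ± 0.25 (adjusted p = 0.16) and Slc27a5 one of 0.54 ± 0.17 (adjusted p = 0.18).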
